A study of Mus musculus with 6 samples.

Results

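The ovarian stroma is the connective tissue between the follicles, and its fibroblasts make the matrix in which follicles grow and recruit the theca. The genes described here are 8 listed markers of these fibroblasts, Pdgfra, Tcf21, Nr2f2, Enpep, Dcn, Bgn, Lum and Ogn. All 8 symbols matched 1 Ensembl gene each among the 55487 genes of the count table, and all 8 were among the 16957 genes that passed the low-count filter and were tested. With all libraries in the fit, 0 of the 8 passed the test between GalTKO and wildtype ovaries, where 2.55% of all tested genes did, and the intervals were wide for several of them.

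RNA was measured in whole mouse ovaries at postnatal day 49, in 3 GalTKO libraries (genotype GalT-/-) and 3 wildtype libraries. GalTKO mice lack Galt, whose product galactose-1-phosphate uridylyltransferase converts galactose-1-phosphate in the Leloir pathway. All 6 samples carry the strain label cbl/6-ola/129, and the diet held 2.5% galactose in the 4 weeks that followed weaning for GalTKO and wildtype mice alike, so no value comes from a galactose-free diet. The labels give neither litter nor estrous stage, nor whether a sample is 1 animal, so p-values measure only the spread between these samples. Total counts lay between 19232486 and 25729564 per library. Galt stood at 0.155, 0.259 and 0 CPM (counts scaled by the TMM library size) in GalTKO replicates 1 to 3, against 17.8, 16.1 and 17.4 CPM in wildtype replicates 1 to 3.

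Pdgfra encodes the alpha receptor for platelet-derived growth factors, a surface marker of fibroblasts and of other mesenchymal cells. Tcf21 and Nr2f2 (COUP-TFII) encode transcription factors of the gonadal mesenchyme, and Enpep encodes glutamyl aminopeptidase, a membrane enzyme that turns angiotensin II into angiotensin III. Dcn, Bgn, Lum and Ogn encode decorin, biglycan, lumican and osteoglycin. These are small leucine-rich proteoglycans, secreted proteins that bind collagen; decorin and biglycan carry chondroitin or dermatan sulfate chains and lumican can carry keratan sulfate. None of the 8 is confined to fibroblasts. Nr2f2, for example, is also expressed in venous and lymphatic endothelium, and Enpep in pericytes. In whole ovaries, fewer cells of a type and less RNA per cell cannot be told apart.

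Bases just upstream of the RefSeq start were tabulated for 6 of the 8 genes (GRCm38.p6). The stretches of Pdgfra, Nr2f2 and Bgn are shown because these genes were all highest in the same GalTKO library, and that of Enpep because it was not. Each is the 120 bases that end at the base before the start, 5′ to 3′ on the gene's strand. Capitals mark a match, on either strand, to any of 5 motifs searched. The TATA box was searched as TATAAA and the CCAAT box by the letters of its name. The GC box was searched as GGGCGG and 1 form of the E-box as CAGCTG. The nuclear receptor element was searched as AGGTCA.
Pdgfra (chr5:75152131-75152250, plus strand): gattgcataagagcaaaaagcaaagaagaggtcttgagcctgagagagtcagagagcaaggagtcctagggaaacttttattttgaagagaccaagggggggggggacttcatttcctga
Nr2f2 (chr7:70366747-70366866, minus strand): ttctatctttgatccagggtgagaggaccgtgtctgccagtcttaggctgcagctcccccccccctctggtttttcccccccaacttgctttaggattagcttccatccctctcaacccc
Bgn (chrX:73483481-73483600, plus strand): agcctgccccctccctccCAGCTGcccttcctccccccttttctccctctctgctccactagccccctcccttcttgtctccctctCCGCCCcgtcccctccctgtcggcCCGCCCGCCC
Enpep (chr3:129332750-129332869, minus strand): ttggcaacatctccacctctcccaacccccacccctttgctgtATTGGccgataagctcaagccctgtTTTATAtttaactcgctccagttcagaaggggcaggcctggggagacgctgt

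Bgn had 3 GC boxes and an E-box in these bases, with the last pair of GC boxes overlapping, and Enpep had a TATA box and a CCAAT box, both on the opposite strand. Pdgfra and Nr2f2 had none of the 5 motifs there. Over the 250 bases before the start, 32.7% of the 32851 tabulated mouse promoters hold the GC box, 12.4% the TATA box, 33.8% the CCAAT box, 13% the E-box form and 14% the nuclear receptor element. Of the 6 stromal genes, Enpep and Ogn held the TATA box, Nr2f2 and Enpep the CCAAT box, Bgn the GC box, Bgn and Ogn the E-box form, and none the nuclear receptor element. Pdgfra, Nr2f2 and Bgn shared no motif of this set. GC content over the 250 bases ran between 42.0% in Ogn and 64.4% in Bgn, with 54.4% in Pdgfra and 52.4% in both Tcf21 and Enpep, against a median of 52.4% over all tabulated promoters.

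All 8 genes were well covered. Over the 6 libraries the fewest reads were 1014, for Tcf21 in GalTKO replicate 2, and the most were 19209, for Bgn in the same library. Per kilobase of annotated exon, wildtype levels were 120.7 ± 7.57 CPM for Ogn, 110.7 ± 10.01 for Bgn, 62.3 ± 6.75 for Dcn and 52.7 ± 4.53 for Lum (SD, n = 3). The regulators and surface proteins were lower on this scale, at 31.4 ± 3.49 CPM per kilobase for Nr2f2, 23.8 ± 2.92 for Tcf21, 22.6 ± 3.42 for Pdgfra and 15.5 ± 2.73 for Enpep. Ogn and Bgn overlapped within 1 SD, as did Dcn with Lum and Tcf21 with Pdgfra. Annotated exons overstate the length of the main transcript for several of these genes. With the length of the principal transcript instead, Bgn led at 279.1 ± 25.3 CPM per kilobase and Dcn followed at 206.9 ± 22.4, ahead of Ogn at 120.7 ± 7.57, Nr2f2 at 64.2 ± 7.12 and Lum at 52.7 ± 4.53. On both scales Enpep was the lowest of the 8.

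The comparison of genotypes asked whether stromal fibroblast genes differ when GALT is missing on a galactose diet. Of the 8 genes, 0 passed an adjusted p under 0.05 (edgeR quasi-likelihood test, Benjamini-Hochberg over all tested genes), where 433 of 16957 tested genes did, 2.55% (1.13% higher and 1.43% lower in GalTKO ovaries). At that share of all genes, 0 of 8 is close to the background and no result about these genes. An unadjusted p under 0.05 was likewise reached by 0 of the 8, against 17.1% of all tested genes, and DESeq2 called 0 of the 8, against 6.19% of genes. The groups overlapped for all 8 genes, while 23.7% of all tested genes had groups that did not overlap. The median log2 fold change was -0.04 over the 8 genes and 0.02 over all tested genes. At an adjusted p under 0.1 the count stayed at 0 of 8, against 4.49% of genes. It was also 0 with median-of-ratios scaling (2.51% of genes called), upper-quartile scaling (2.36%), no filter on low counts (2.83%), a filter of 1 CPM in 3 libraries (2.62%), protein-coding genes alone (1.81%) and the replicate number as a block (1.89%). With GalTKO replicate 1 or 3 left out it was 0, against 1.51% and 1.85% of genes called, and with wildtype replicate 1, 2 or 3 left out it was 0, against 1.04%, 0.945% and 1.15%.

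**Figure D1:**
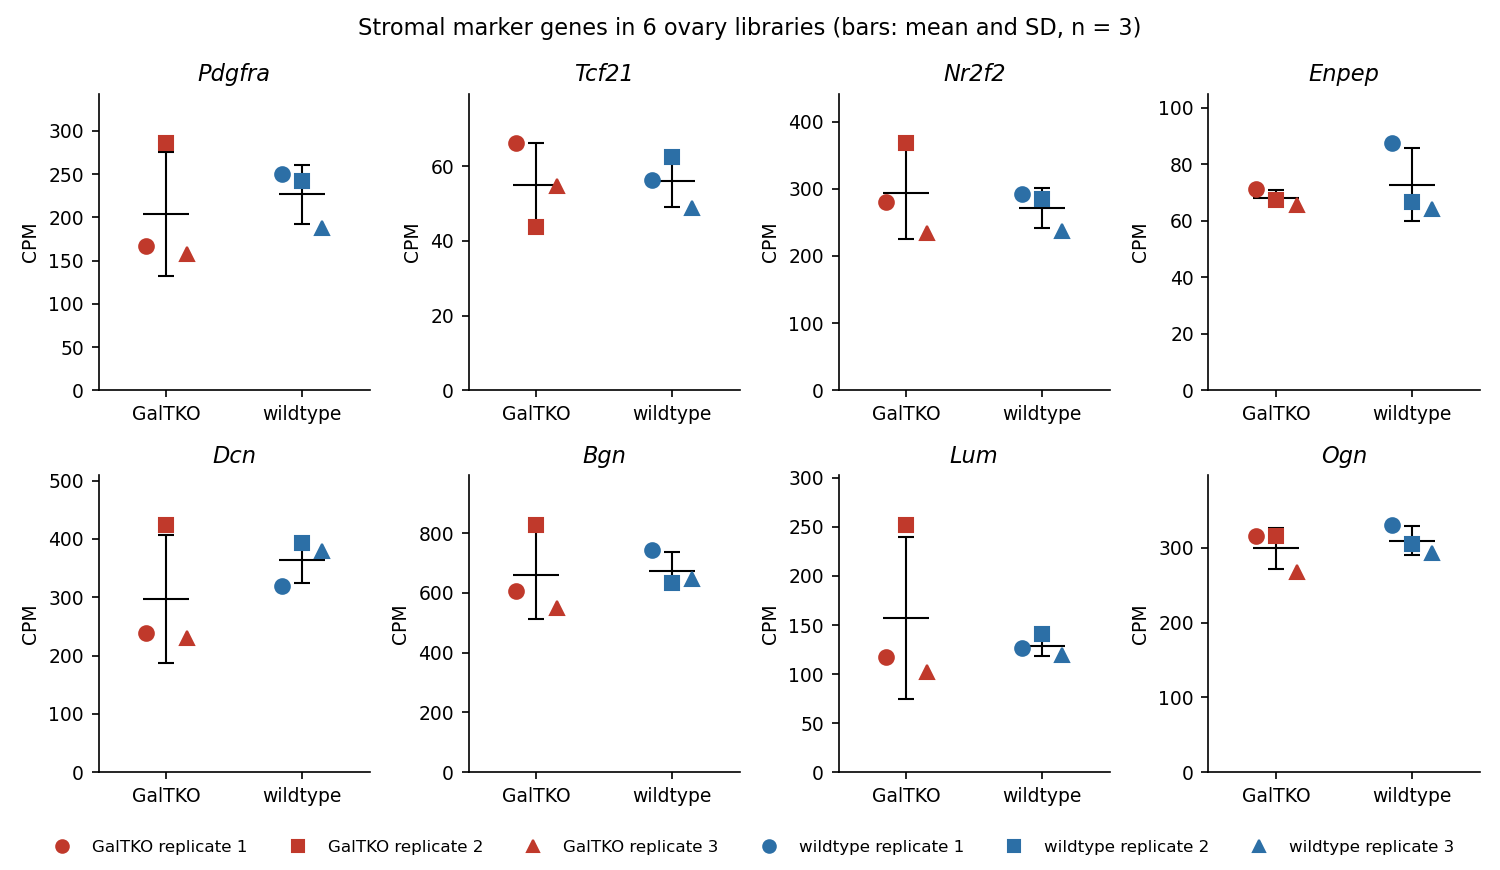
CPM of each stromal marker (vertical axes, starting at 0) in the 3 GalTKO and 3 wildtype libraries, with a symbol for each library and bars for the mean and SD (n = 3). GalTKO replicate 2 (red square) is the highest of the 6 libraries for Pdgfra, Nr2f2, Dcn, Bgn and Lum and the lowest for Tcf21, and the groups overlap in every panel.

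Pdgfra (ENSMUSG00000029231; GRCm38 chromosome 5, 75152292 to 75198215, plus strand) stood at 167.4, 286.0 and 158.0 CPM in GalTKO replicates 1 to 3, against 250.7, 241.6 and 187.3 CPM in wildtype replicates 1 to 3. GalTKO replicate 2 was the highest of all 6 libraries and the other GalTKO libraries were the lowest. The log2 fold change was -0.15 ± 0.24 (SE; 95% interval -0.72 to 0.42; edgeR adjusted p = 0.803), so a decrease to 0.605-fold and an increase to 1.34-fold both lie within the interval. Its antisense and other overlapping genes held 11 counts in all over the 6 libraries.

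Tcf21 (ENSMUSG00000045680; chromosome 10, 22817281 to 22820174, minus strand) stood at 66.2, 43.7 and 54.8 CPM in GalTKO replicates 1 to 3, against 56.3, 62.6 and 48.9 CPM in wildtype replicates. An overlapping antisense gene, Gm10824, had 29 to 43 counts per library, against 1014 to 1711 for Tcf21. For Tcf21, GalTKO replicate 2 was the lowest library, the reverse of Pdgfra. Its log2 fold change was -0.03 ± 0.16 (95% interval -0.39 to 0.34; adjusted p = 0.954).

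Nr2f2 (ENSMUSG00000030551; chromosome 7, 70351944 to 70366735, minus strand) stood at 280.1, 368.1 and 233.5 CPM in GalTKO replicates 1 to 3, against 291.5, 285.0 and 236.5 CPM in wildtype replicates. Again GalTKO replicate 2 was the highest and GalTKO replicate 3 the lowest library. The log2 fold change was 0.12 ± 0.17 (95% interval -0.27 to 0.50; adjusted p = 0.776). B130024G19Rik, a transcript on the other strand that overlaps Nr2f2, had 89 to 168 counts per library, against 4485 to 8534 for Nr2f2, and whether strand was used in the counting is unknown here.

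Enpep (ENSMUSG00000028024; chromosome 3, 129269175 to 129332720, minus strand) was the least variable of the 8 among GalTKO libraries, at 71.1, 67.2 and 65.5 CPM, against 87.5, 66.6 and 64.1 CPM in wildtype replicates 1 to 3. Wildtype replicate 1 was above the other 5 libraries, which lay within 7 CPM of each other. The log2 fold change was -0.10 ± 0.12 (95% interval -0.38 to 0.19; adjusted p = 0.738).

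Among the proteoglycans, Dcn (ENSMUSG00000019929; chromosome 10, 97479609 to 97518143, plus strand) had the largest negative value. It stood at 239.3, 424.4 and 229.6 CPM in GalTKO replicates 1 to 3, against 319.1, 393.4 and 378.9 CPM in wildtype replicates. GalTKO replicates 1 and 3 were below all wildtype libraries and GalTKO replicate 2 was above them. The log2 fold change was -0.29 ± 0.24 (95% interval -0.86 to 0.28; adjusted p = 0.607).

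Lum (ENSMUSG00000036446; chromosome 10, 97565128 to 97572703, plus strand) lies 85.5 kb downstream of Dcn, start to start, and had the largest positive value of the 8. It stood at 117.6, 252.2 and 102.4 CPM in GalTKO replicates 1 to 3, against 126.7, 141.0 and 119.2 CPM in wildtype replicates. GalTKO replicate 2 alone was high, at 2.29 times the mean of the other GalTKO libraries, and those were below all wildtype libraries. The log2 fold change was 0.29 ± 0.34 (95% interval -0.55 to 1.12; adjusted p = 0.730), the widest interval of the 8.

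Bgn (ENSMUSG00000031375; chromosome X, 73483602 to 73495933, plus strand) stood at 605.8, 828.6 and 549.4 CPM in GalTKO replicates 1 to 3, against 745.5, 634.6 and 645.6 CPM in wildtype replicates, with the same order of GalTKO libraries as Dcn. Its log2 fold change was -0.03 ± 0.16 (95% interval -0.39 to 0.33; adjusted p = 0.946).

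Ogn (ENSMUSG00000021390; chromosome 13, 49608046 to 49624501, plus strand) stood at 315.9, 315.4 and 267.8 CPM in GalTKO replicates 1 to 3, against 331.1, 305.1 and 293.1 CPM in wildtype replicates. It had the narrowest interval of the 8, with a log2 fold change of -0.05 ± 0.10 (95% interval -0.27 to 0.18; adjusted p = 0.853), which bounds the fold between 0.827 and 1.13. Ogn overlaps Cenpp on the other strand, which had 103 to 150 counts per library, against 5144 to 8280 for Ogn.

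Several of these genes varied more between GalTKO than between wildtype libraries. The SD of log2 CPM was 0.70 among GalTKO and 0.12 among wildtype libraries for Lum, 0.50 and 0.16 for Dcn, 0.47 and 0.23 for Pdgfra, 0.33 and 0.17 for Nr2f2, and 0.31 and 0.13 for Bgn. Over all tested genes the median SD was 0.20 among GalTKO and 0.14 among wildtype libraries. Enpep was the exception, at 0.06 among GalTKO and 0.24 among wildtype libraries. The summed level of the 8 genes was 1863, 2586 and 1661 CPM in GalTKO replicates 1 to 3, against 2208, 2130 and 1973 CPM in wildtype replicates, or 2037 ± 486 CPM in GalTKO and 2104 ± 120 CPM in wildtype libraries (SD, n = 3). The highest and the 2 lowest sums were all GalTKO libraries.

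GalTKO replicate 2 was the highest of the 6 libraries for 5 of the 8 genes, where it was highest for 21.4% of all tested genes and lowest, as for Tcf21, for 19.8%, and it set several of the values above. Without it Dcn passed the threshold, with a log2 fold change of -0.63 ± 0.11 (SE; 95% interval -0.89 to -0.38; edgeR adjusted p = 0.0218), a fold of 0.644 with 2 GalTKO against 3 wildtype libraries. This was 1 of 8 genes, against 4.26% of 17410 tested genes called in that fit and 2.43% called lower. Pdgfra then had -0.48 ± 0.13 (adjusted p = 0.0879), Lum -0.23 ± 0.10 (0.259) and Bgn -0.23 ± 0.11 (0.290), none past the threshold. Lum and Nr2f2 changed from positive to negative values and Tcf21 from negative to positive. Ogn at -0.09 and Enpep at -0.09 moved little.

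**Figure D2:**
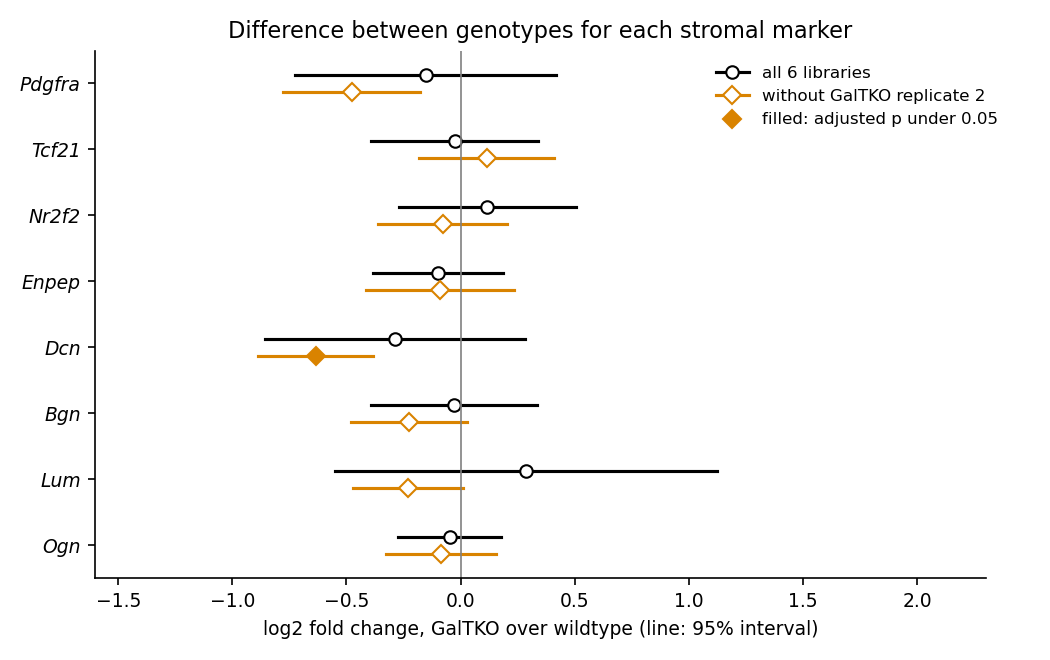
Log2 fold change of GalTKO over wildtype for each stromal marker (horizontal axis), with its 95% interval as a line, in the edgeR fit of all 6 libraries (black circles) and without GalTKO replicate 2 (orange diamonds). Filled symbols passed an adjusted p under 0.05, which only Dcn did, at -0.63, without that library.

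The same library stood apart in some genes of other cells, but not in every list of them. Cyp17a1, the androgen-making enzyme of theca cells, was at 399.7, 7.29 and 296.0 CPM in GalTKO replicates 1 to 3, against 119.6, 132.1 and 119.2 CPM in wildtype replicates. Cyp17a1 is 1 of 13 listed theca and steroidogenic interstitial markers and was named after its values were seen. Their summed level was 9377, 11100 and 13010 CPM in GalTKO replicates 1 to 3, against 14110, 15840 and 20630 CPM in wildtype replicates. In that sum GalTKO replicate 2 lay between the other GalTKO libraries. The summed level of 11 corpus luteum markers was 5930, 2389 and 8193 CPM in GalTKO replicates 1 to 3, against 7649, 7649 and 9112 CPM in wildtype replicates. For 15 smooth muscle and pericyte markers it was 2506, 2820 and 1913 CPM in GalTKO replicates, against 2497, 2265 and 2189 CPM in wildtype replicates, again with GalTKO replicate 2 highest and GalTKO replicate 3 lowest. The part of these cells in the values of the stromal genes was not tested.

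Ratios between the 8 genes within a library do not depend on how libraries are scaled. Of 6 ratios compared, those of Lum over Dcn and Nr2f2 over Pdgfra had groups that did not overlap. Among single tested genes 23.7% had such groups, and no share was computed over ratios of other genes. The 6 ratios all have Dcn or Pdgfra as denominator, so they are not separate observations. Lum over Dcn was 0.492, 0.594 and 0.446 in GalTKO replicates 1 to 3, against 0.397, 0.359 and 0.315 in wildtype replicates, higher in each of the 3 GalTKO libraries. The log2 difference was 0.51, with SDs of 0.21 in GalTKO and 0.17 in wildtype libraries (exact two-sided permutation test, p = 0.1, the smallest that 3 against 3 libraries allow, and 0.3 adjusted over the 6 ratios). It lay between 0.40 and 0.61 with 1 library left out, with the lowest value without GalTKO replicate 2. Nr2f2 over Pdgfra was 1.67, 1.29 and 1.48 in GalTKO replicates, against 1.163, 1.18 and 1.26 in wildtype replicates (log2 difference 0.29, exact two-sided permutation p = 0.1, adjusted 0.3).

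Neither ratio passed the correction, which this design cannot reach. The log2 difference was 0.29 for Bgn over Dcn (exact permutation p = 0.2), 0.29 for Ogn over Dcn (0.4), 0.16 for Tcf21 over Pdgfra (0.8) and 0.11 for Enpep over Pdgfra (0.6), with overlapping groups in each. Tcf21 over Pdgfra spread widest, at 0.396, 0.153 and 0.347 in GalTKO replicates 1 to 3, against 0.225, 0.259 and 0.261 in wildtype replicates.

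**Figure D3:**
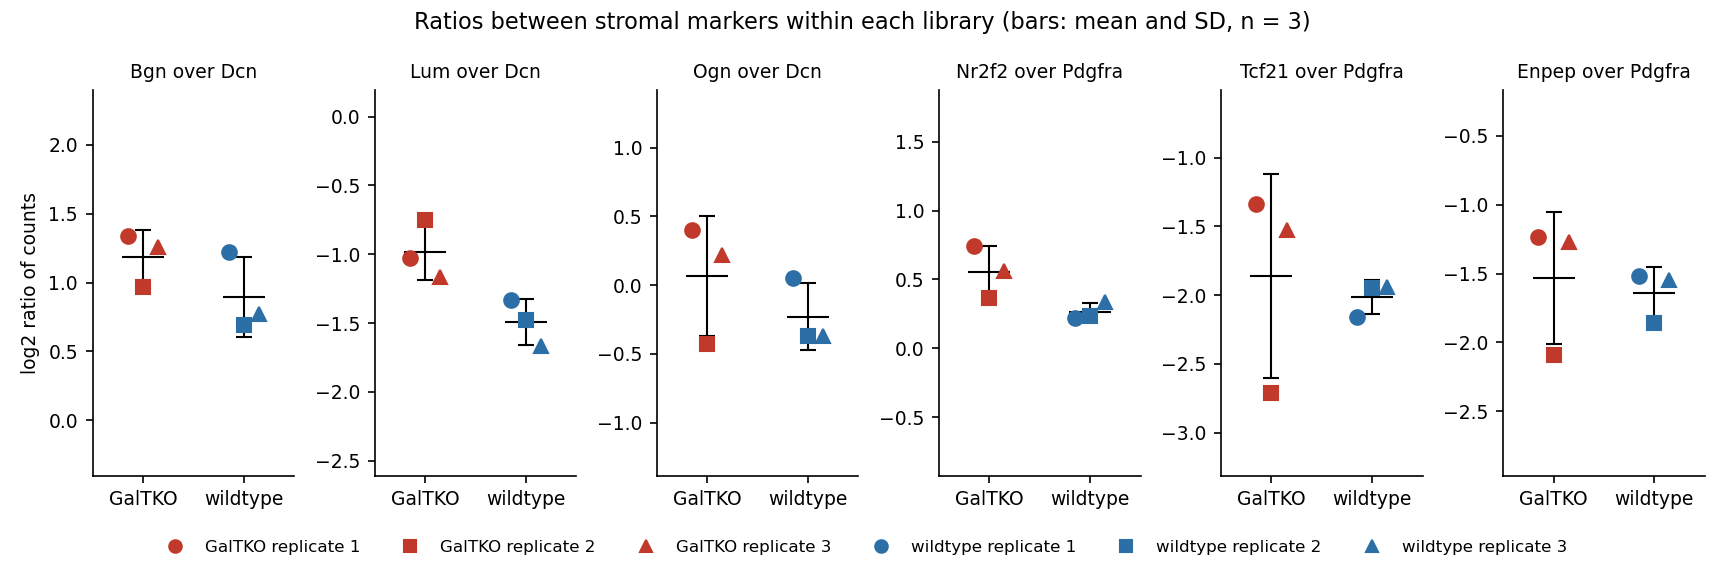
Log2 ratio of counts between pairs of stromal markers within each library (vertical axes of equal length), by genotype, with bars for the mean and SD (n = 3). The GalTKO libraries lie above all wildtype libraries for Lum over Dcn and Nr2f2 over Pdgfra, and the groups overlap for the other ratios.

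The remaining small leucine-rich proteoglycans held 2 of the 3 calls among 8 lists of proteoglycan, fibroblast, signalling and sugar-chain genes. Of 13 listed genes 11 were tested, 1 was higher and 1 lower in GalTKO ovaries, with a median log2 fold change of -0.08. For all 8 lists the background is the share of all tested genes. This was 2.55% called in edgeR, 17.1% with an unadjusted p under 0.05 and 6.19% called by DESeq2. No list was tested as a set. Fmod, fibromodulin, a collagen-binding relative of lumican, fell to 9.48, 10.1 and 9.11 CPM in GalTKO replicates 1 to 3, against 17.9, 17.9 and 18.4 CPM in wildtype replicates. These groups were far apart and each was tight (log2 fold change -0.91 ± 0.11, SE; edgeR adjusted p = 0.00540). Fmod passed in each fit with 1 library left out.

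Tsku, tsukushi, a secreted modulator of growth factor signalling, rose to 25.0, 26.1 and 23.4 CPM in GalTKO replicates 1 to 3, against 17.8, 16.1 and 18.6 CPM in wildtype replicates (log2 fold change 0.51 ± 0.11, SE; adjusted p = 0.0488). Its call was lost with any 1 library left out, with adjusted p between 0.0626 and 0.208, with the replicate block (0.104), with median-of-ratios scaling (0.0520) and among protein-coding genes alone (0.0537). Without GalTKO replicate 2, where Tsku did not pass, Podnl1 was called higher and Ecm2 lower, at 1.21 ± 0.23 and -0.61 ± 0.11 (edgeR adjusted p = 0.0337 and 0.0257). With all libraries Podnl1 had 0.72 ± 0.70 and Ecm2 -0.37 ± 0.18 (0.666 and 0.348).

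Dcn and Lum, and likewise Ogn, lie in clusters of such genes. On chromosome 10, Kera and Epyc, next to Lum, were nearly silent, with 7 counts in all for Kera and 1 for Epyc over the 6 libraries, and were not tested. On chromosome 13 the genes beside Ogn were all expressed. Ecm2 stood at 26.2, 43.9 and 30.9 CPM in GalTKO replicates 1 to 3, against 45.5, 44.7 and 40.5 CPM in wildtype replicates, Aspn at 58.6, 52.6 and 45.6 CPM in GalTKO replicates, against 53.4, 61.4 and 50.6 CPM in wildtype replicates, and Omd at 27.4, 12.6 and 38.0 CPM in GalTKO replicates, against 30.6, 32.0 and 23.0 CPM in wildtype replicates. None of these passed, and Omd was lowest in the library in which Dcn and Lum were highest.

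For the receptor Pdgfra, the 4 PDGF ligands and Pdgfrb gave no call: 0 of 5 passed in edgeR or DESeq2, and 1, Pdgfc, had an unadjusted p under 0.05. Pdgfc, a ligand of the alpha receptor, stood at 61.5, 54.7 and 70.9 CPM in GalTKO replicates 1 to 3, against 52.6, 53.8 and 43.7 CPM in wildtype replicates (log2 fold change 0.32 ± 0.12, SE; edgeR adjusted p = 0.244). Every GalTKO library was above every wildtype library, by less than 1 CPM at the closest. Pdgfc was the 1 gene of these 5 whose groups did not overlap, near the 23.7% of all tested genes. Pdgfb had -0.20 ± 0.14 (adjusted p = 0.513). Kit and Kdr lie 422.6 and 780.5 kb from Pdgfra, between the lower coordinates. Kdr, a vascular endothelial growth factor receptor gene that is listed here as a partner of decorin, fell to 76.4, 80.6 and 71.9 CPM in GalTKO replicates 1 to 3, against 114.9, 118.6 and 133.4 CPM in wildtype replicates (log2 fold change -0.68 ± 0.09; adjusted p = 0.00769), while Kit had -0.06 ± 0.15 (0.884). Kdr was the 1 call among 14 tested partners of decorin and biglycan, whose median was 0.00. Of these, 2 had an unadjusted p under 0.05 in edgeR, and DESeq2 called 2, both lower. Without GalTKO replicate 2, Ccn4 was higher as well, at 1.25 ± 0.13 (edgeR adjusted p = 0.00283). With all libraries Ccn4 had 0.84 ± 0.51 (0.475).

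Other fibroblast genes did not pass either. Of 40 tested, 0 were called and 26 had a negative value, with a median log2 fold change of -0.11; in edgeR 6 had an unadjusted p under 0.05, and DESeq2 called 0. Over all 16957 tested genes 2.55% were called, 17.1% had an unadjusted p under 0.05 and 7896 had a negative value. Cd34 had -0.37 ± 0.11 and Serpinf1 -0.29 ± 0.09 (adjusted p = 0.133 and 0.149). Without GalTKO replicate 2 the median was -0.23, 30 of 40 were negative, and Thy1 (-0.53 ± 0.11, edgeR adjusted p = 0.0360) and Igfbp6 (-0.53 ± 0.10, 0.0301) were lower, against 2.43% of all genes called lower in that fit. Without GalTKO replicate 3 the median was -0.00259 and 21 of 40 were negative. In that fit 1 other gene was called lower, against 1.85% of all genes called. With no filter on low counts 2 were called lower, against 2.83% of all genes called. Of 20 mesenchymal transcription factors 0 passed in edgeR; an unadjusted p under 0.05 was reached by 2, and DESeq2 called 1. Gata6 had -0.47 ± 0.13 (0.120), and Nr2f1, the paralog of Nr2f2, -0.71 ± 0.27 (0.226). Nr2f1 was far less abundant, at 1.59 to 2.76 CPM in GalTKO and 3.20 to 4.06 CPM in wildtype libraries.

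The enzymes that build the sugar chains of these proteoglycans were also examined, since the linkage to the core protein holds galactose. Of 27 tested enzymes of the linkage region and of chondroitin and dermatan sulfate, 0 passed in edgeR, 2 had an unadjusted p under 0.05 and DESeq2 called 1, with a median of 0.04. Xylt1, which adds the first xylose to the core protein, stood at 30.7, 36.2 and 41.4 CPM in GalTKO replicates 1 to 3, against 53.0, 47.5 and 82.5 CPM in wildtype replicates (-0.76 ± 0.22, SE; edgeR adjusted p = 0.145). Csgalnact1, which starts chondroitin chains, had 1.59 ± 0.61 (0.259), with 25.2 CPM in GalTKO replicate 1 against 6.21 and 5.93 CPM in GalTKO replicates 2 and 3 and at most 4.59 CPM in wildtype libraries.

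Of 11 keratan sulfate enzymes 0 passed, 1 had an unadjusted p under 0.05 and DESeq2 called 1. Chst1, a keratan sulfotransferase, stood at 7.78, 15.6 and 4.997 CPM in GalTKO replicates 1 to 3, against 21.8, 16.2 and 20.9 CPM in wildtype replicates (-1.05 ± 0.39; adjusted p = 0.242). Without GalTKO replicate 2 it passed, at -1.61 ± 0.22 (0.00943). Fut8 had -0.55 ± 0.25 (0.327).

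In the angiotensin pathway around Enpep, 0 of 13 tested genes passed in edgeR, where 3 reached an unadjusted p under 0.05. DESeq2 called 1, and the median was 0.01. Ren1, renin, was at 2.17, 10.5 and 1.51 CPM in GalTKO replicates 1 to 3, against 0.720, 0.761 and 0.996 CPM in wildtype replicates (2.52 ± 0.78, SE; edgeR adjusted p = 0.177). Agtr1a, the main angiotensin II receptor gene, was at 1.97, 6.82 and 2.97 CPM in GalTKO replicates, against 1.64, 1.82 and 1.52 CPM in wildtype replicates (1.24 ± 0.44; 0.212). Both were higher in every GalTKO library and highest in GalTKO replicate 2. Of the 13 tested genes, 2 were higher and 1 was lower with groups that did not overlap. This is near the 23.7% of all tested genes whose groups did not overlap.

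**Figure D4:**
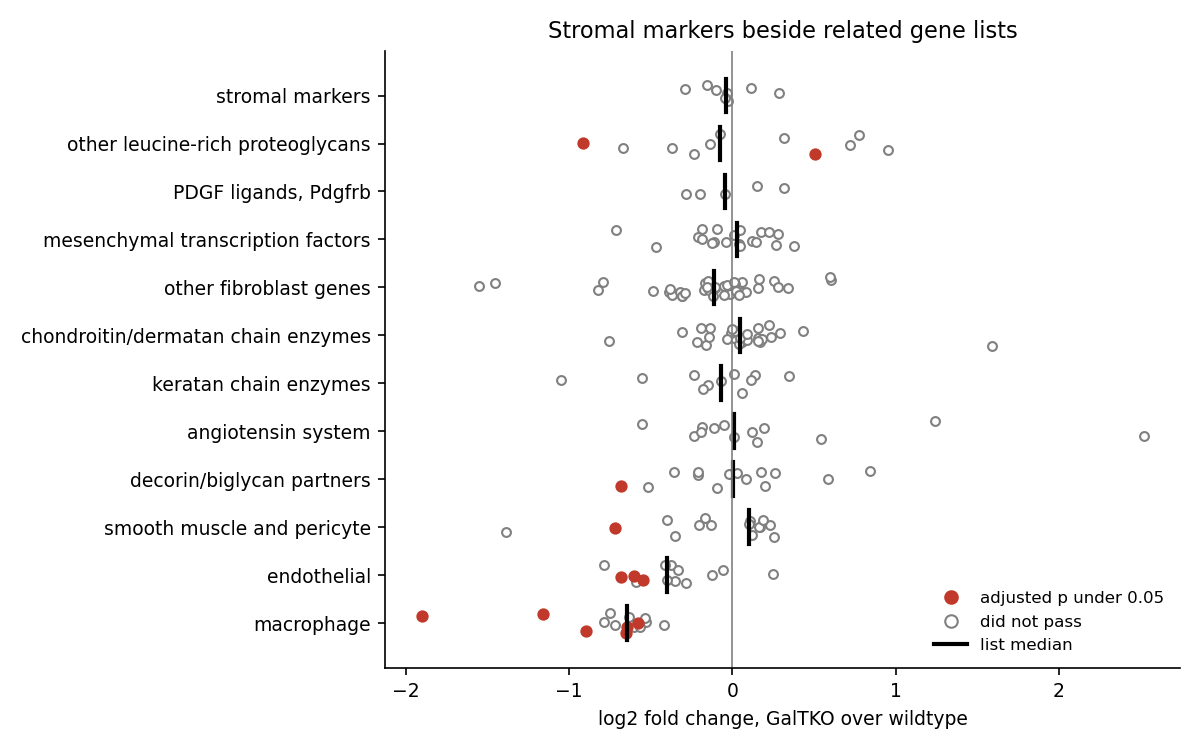
Log2 fold change of GalTKO over wildtype (horizontal axis) for each tested gene of the stromal markers, of the 8 lists of proteoglycan, fibroblast, signalling and sugar-chain genes and of 3 lists of other cell types (rows), with filled points for an adjusted p under 0.05 and a bar for the list median; vertical position within a row carries no value. The 8 stromal markers hold no filled point and have a median of -0.04, and 6 macrophage and 3 endothelial genes are filled, all negative.

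For markers of other cells, the background in the edgeR fit of all 6 libraries is again 2.55% of tested genes called. Counts from other fits have their own backgrounds, 6.19% with DESeq2 and 4.26% without GalTKO replicate 2. With any other library left out, the share lay between 0.945% and 1.85%. Calls over all tested genes thus changed between fits as well, and no difference between lists was tested. Of 15 macrophage markers 6 were lower, with a summed level of 340.4 to 373.1 CPM in GalTKO and 526.4 to 632.7 CPM in wildtype libraries. Mpeg1 had -0.90 ± 0.10 (edgeR adjusted p = 0.00307). The number of macrophage calls was 2 without GalTKO replicate 1, wildtype replicate 1 or wildtype replicate 2, 3 without GalTKO replicate 3, 6 without wildtype replicate 3 and 8 without GalTKO replicate 2, and 12 with DESeq2, all lower. Of 15 endothelial markers 3 were lower, 1 of them Kdr, already counted above as a partner of decorin. The summed level of the 15 was 689.1 to 773.6 CPM in GalTKO and 859.9 to 1033 CPM in wildtype libraries. The number of endothelial calls was 1 without GalTKO replicate 3, wildtype replicate 2 or wildtype replicate 3, and 2 without GalTKO replicate 1 or wildtype replicate 1. It was 6 without GalTKO replicate 2, and 7 with DESeq2.

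Of 15 smooth muscle and pericyte markers 1, Rgs5, was lower (-0.72 ± 0.10; edgeR adjusted p = 0.00980), and it was lost without wildtype replicate 2 (0.0552). Granulosa markers gave 2 higher and 1 lower of 14, but 0 without GalTKO replicate 1 or wildtype replicate 1, 1 higher without wildtype replicate 2 or 3, 2 higher without GalTKO replicate 3, and 4 higher and 1 lower without GalTKO replicate 2. Steroidogenic interstitial markers gave 1 lower of 13, 0 without GalTKO replicate 1 or wildtype replicate 1, and 1 higher and 2 lower without GalTKO replicate 2. Surface epithelium markers gave 1 higher of 14, and 0 without GalTKO replicate 1 or any 1 of the wildtype replicates. DESeq2 called 5 granulosa markers higher and 1 lower, 3 steroidogenic interstitial markers lower and 4 surface epithelium markers higher. Luteal and oocyte markers gave 0 of 11 and 0 of 14 in edgeR, of which 3 and 4 had an unadjusted p under 0.05 and DESeq2 called 3 and 1. Without GalTKO replicate 2 the luteal markers gave 2 lower, and without GalTKO replicate 3 they gave 1 lower. Of tissue beside the ovary, fat pad and oviduct markers gave 1 higher of 6 tested among 14 listed. This was Plin1 (log2 fold change 1.055 ± 0.134 SE, edgeR adjusted p = 0.00617), which passed in each fit with 1 library left out. The 14 markers summed to 102.8 to 481.5 CPM in GalTKO and 318.4 to 561.1 CPM in wildtype libraries. The fat gene Adipoq had 1 count in all, and the oviduct gene Ovgp1 was at 20.3 CPM in wildtype replicate 2, against at most 0.800 CPM in the other 5 libraries.

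The genes whose pattern over the 6 libraries was nearest to each stromal marker, by the root mean square difference of mean-centred log2 CPM among 13145 protein-coding genes, were Tnfrsf19 for Pdgfra (0.0196), Vgll3 for Lum (0.0588), Ppfia4 for Dcn (0.0820), Pald1 for Bgn (0.0472), Vsig10l for Nr2f2 (0.0294), Rnf166 for Tcf21 (0.0575), Efhd2 for Ogn (0.0171) and Angel1 for Enpep (0.0484). Tnfrsf19 stood at 19.6, 33.1 and 18.7 CPM in GalTKO replicates 1 to 3, against 29.6, 27.4 and 21.7 CPM in wildtype replicates. Vgll3 stood at 68.8, 138.5 and 53.6 CPM in GalTKO replicates, against 67.6, 79.8 and 69.0 CPM in wildtype replicates, with the same single high library as Lum. Ppfia4 was far less abundant than Dcn, at 1.46 to 2.33 CPM over the 6 libraries. Among the 8 themselves, Nr2f2 and Bgn were nearest to each other (0.119), as were Ogn and Enpep (0.110), while the nearest to Dcn was Pdgfra (0.207). Each distance among the 8 is the smallest of 7, so it cannot be compared with the smallest of 13145. These distances describe 6 libraries and were not tested.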

How the data were processed

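Whole-ovary RNA of 3 GalTKO and 3 wildtype samples, grouped by their titles, was sequenced. Per the labels' protocols, these were stranded total RNA libraries depleted of ribosomal RNA. The values deposited by the authors are unnormalised counts for 55487 Ensembl genes. The submitters' processing notes name GRCm38, featureCounts 1.6.3, STAR 2.7.6a, DESeq2 1.30.1 and cutadapt 1.16, without roles. The annotation, the strandedness of counting and the handling of shared reads, which bear on overlapping genes, are unknown here.

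Names, coordinates and exon lengths came from GENCODE M21 (55227 identifiers matched). No 2 libraries of a genotype agreed within sampling noise (chi-square per degree of freedom at least 12). Counts were tested with edgeR 4.0.16 in R 4.3.3: filterByExpr (minimum count 10, total 15), TMM scaling and a robust quasi-likelihood fit with genotype as the only term, with Benjamini-Hochberg adjustment over all tested genes and two-sided p-values. The SE is the log2 fold change divided by the square root of F, and 95% intervals use the fit's degrees of freedom. The common coefficient of variation was 17.4%. The test was checked on simulated data. Ratios used an exact permutation test.

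The 8 genes and the related lists were chosen with earlier results of these data known. Named genes were the 8 markers, called members of related lists or the 2 with the smallest p, up to 2 per other cell type, nearest neighbours by pattern and genes of the proteoglycan clusters; Cyp17a1, Kit, Ovgp1, Adipoq and the genes called without GalTKO replicate 2 were named after their values were seen. For other cell types most rule-chosen genes are given as counts only. Alternatives were upper-quartile and median-of-ratios scaling, DESeq2 1.42.0, 2 other filters, protein-coding genes alone, a block for the replicate number, leaving out each library, an adjusted p of 0.1, and, after seeing the data, principal transcript length. Promoter sequences are RefSeq's (GRCm38.p6).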

Additional observations from a re-analysis of the deposited data

How the results depend on the processing

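The count of stromal markers past the threshold was 0 in each of the 7 alternatives of scaling, test, filter, gene set and replicate block and at an adjusted p under 0.1, and 0 to 1 with a library left out, the 1 being Dcn without GalTKO replicate 2. With a library left out, the log2 fold change lay between -0.48 and 0.000617 for Pdgfra, -0.18 and 0.11 for Tcf21, -0.0778 and 0.26 for Nr2f2, -0.18 and 0.0543 for Enpep, -0.63 and -0.13 for Dcn, -0.23 and 0.0864 for Bgn, -0.23 and 0.52 for Lum, and -0.0875 and 0.0267 for Ogn. Dcn alone kept its sign in all 13 alternatives; under those that kept all 6 libraries, the 8 genes kept theirs. The number of genes past the threshold over the whole table was 1049 with DESeq2, 877 with no filter on low counts, 260 among protein-coding genes alone, and 165 to 742 with a library left out. Calls over the related lists numbered 3, against 8 with DESeq2, 6 with no filter and 2 to 8 with a library left out. The difference in summed level, -67.3 CPM, lay between -341.8 and 120.6 CPM with a library left out. Of the ratios, Tcf21 over Pdgfra lay between -0.11 and 0.58 and Enpep over Pdgfra between -0.0385 and 0.39 (log2 difference), and the other 4 kept their sign. The cause of these changes was not tested.

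The labels do not say whether samples with the same replicate number share anything else. Their deviations from the group means correlated at 0.0926, -0.0404 and 0.0780 over genes for numbers 1 to 3. For samples with different numbers the correlations lay between -0.118 and 0.029. Such values cannot exclude a shared litter or batch. With the replicate block 321 genes and 0 stromal markers passed. Sampling noise is small at these depths for the 8 genes; 3 libraries per genotype limit the comparison.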
